A study of Homo sapiens with 8 samples.

Results

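Clone 2, a clone of the human leukemia line KCL-22 that is resistant to GNF-2, was compared with a GNF-2-resistant population of the same line, the kind of culture it was isolated from. Each side has 1 library, and the comparison took every gene whose FPKM reached 5 or more in whichever of both was higher. FPKM is a fragment count divided by transcript length and library size, so it can be read per length between genes. Of 31332 table entries with a value in all 8 libraries of the series, 9791 met that rule.

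KCL-22 comes from a chronic myeloid leukemia in blast crisis. All 8 cultures derived from 1 pool that carried ClonTracer, a lentiviral barcode library that tags the descendants of single cells. The GNF-2 population had been kept in GNF-2 at 2.5 µM for 21 days. Clone 2 was sorted as a single cell from a subpopulation resistant to 2.5 µM GNF-2, was expanded, and had not met a catalytic inhibitor. It is 1 clone and 1 library. The labels do not say whether the clone came out of the very culture that was sequenced, how long it grew, or whether GNF-2 was present at harvest. The other libraries were a vehicle population (0.1% DMSO, 7 days), an imatinib population (2.5 µM, 27 days), a nilotinib population (0.3 µM, 27 days), Clone 1 (GNF-2 origin, resistant to GNF-2), Clone 4 (GNF-2 origin, resistant to all 3 inhibitors) and Clone 3 (imatinib origin, resistant to imatinib and nilotinib). For Clones 1, 3 and 4 the labels also give a dose of 2.5 µM.

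BCR-ABL is a constantly active tyrosine kinase made by a fusion of BCR and ABL1, and it drives growth through STAT5, MAP kinase and other routes. Imatinib and nilotinib occupy the catalytic site of ABL, while GNF-2 binds the myristate pocket away from it. A resistant population can hold many barcoded lineages, whereas a clone shows the expression of 1 lineage. The population value is a mean over its cells: fewer cells that express a gene and less RNA per cell cannot be told apart in bulk RNA.

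In Clone 2, PCOLCE, PHOSPHO1 and SP7, known from bone, the receptor tyrosine kinases ERBB3, FGFR3 and AXL, the SRC family kinase LYN and the MHC class I genes HLA-B and HLA-C stood at least 2-fold above the GNF-2 population. At least 2-fold below it were 10 of 17 measured myeloid surface and cytokine receptors, 12 of 26 genes of the ATF4 amino acid response, 10 of 35 interferon-stimulated genes and the granule protease gene CTSG. The bone genes RUNX2, IBSP and SPP1 were not higher in Clone 2. Of 10 measured receptor tyrosine kinases and ligands, 5 lay above the population and 5 below. Counted over the 9791 genes, 1171 (12%) were at least 2-fold apart on the log2(FPKM + 1) scale. Of these, 399 (4.08%) were higher in Clone 2 and 772 (7.88%) were lower. At least 8-fold apart were 63 higher and 91 lower genes. Of 620 measured members of 47 gene lists, chosen with earlier results of these data known, 138 (22.3%) were at least 2-fold apart. The pseudocount of 1 understates differences of low genes. With 1 library a side the differences have no replicate check, and no test was made of them. The median log2 difference over all genes was -0.04, and chromosome medians ran from -0.12 (chromosome 18) to 0.01 (chromosome 3). By its median no chromosome was displaced as a whole. The share of lower genes ran from 5.41% (chromosome 2) to 13.7% (chromosome 18, with 131 measured genes). That of higher genes ran from 2.29% (chromosome 18) to 6.30% (chromosome 4). At the edge of the FPKM rule, ITGA9 was just inside with 5.001 in the population and 0.147 in Clone 2, and BEND7 was just outside with 4.98 in Clone 2 and 0.262 in the population.

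**Figure D1:**
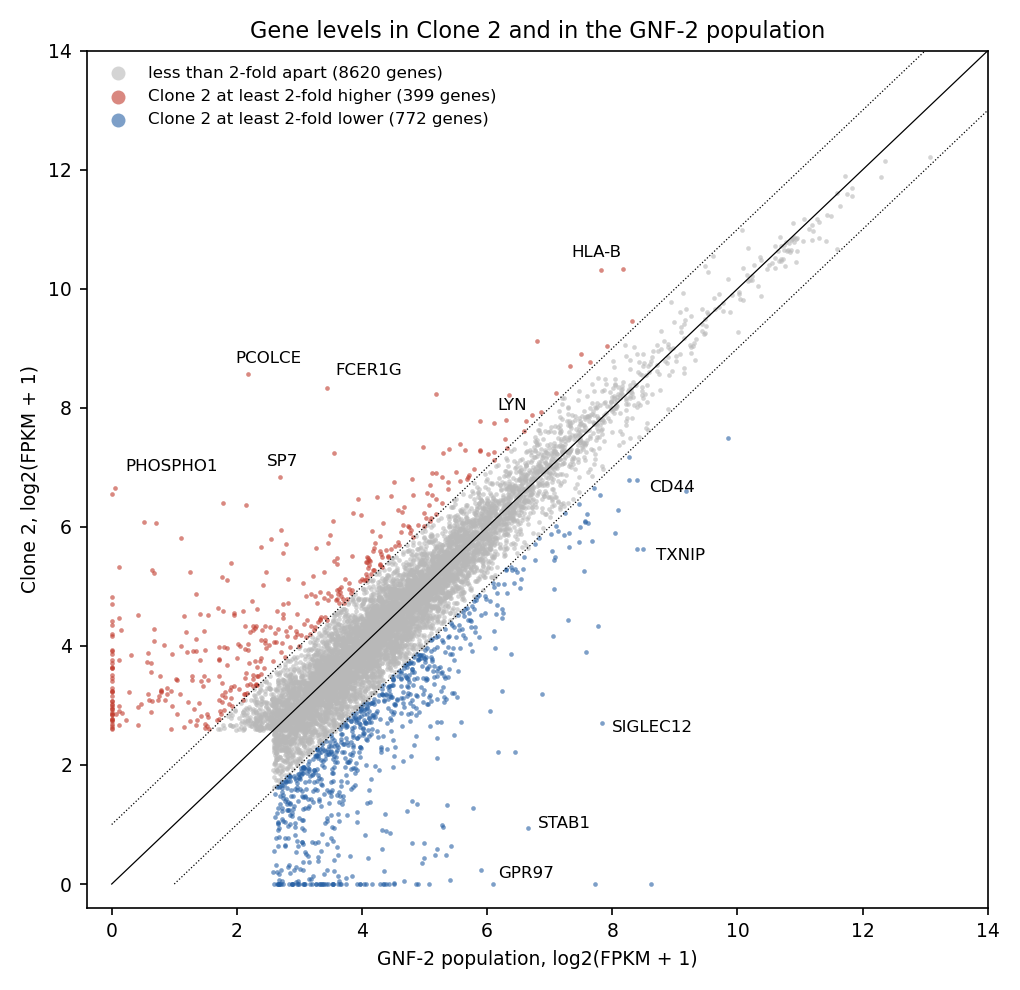
Level of each of the 9791 genes in the GNF-2 population (horizontal) and in Clone 2 (vertical), both as log2(FPKM + 1). Dotted lines mark 2-fold. The 399 red genes lie above and the 772 blue genes below these lines, with PCOLCE, FCER1G and PHOSPHO1 far above and STAB1, GPR97 and SIGLEC12 far below.

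The drug target itself differed little. ABL1 (chromosome 9, 133589267 to 133763062; positions are on GRCh37) stood at an FPKM of 70.5 in Clone 2 and 81.7 in the population, a log2 difference of -0.21. BCR (chromosome 22, 23522551 to 23660224) had 72.7 and 85.1, a log2 difference of -0.22. One value per gene cannot tell the fusion from the unfused copies. Of 14 genes for ABL1, BCR and their adaptors, none was at least 2-fold higher, and 1 was lower: INPP5D, a lipid phosphatase of blood cells, with 27.2 in Clone 2 against 56.0. None of 5 measured drug exporters and uptake carriers was 2-fold apart.

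Among the genes higher in Clone 2, PCOLCE (chromosome 7, 100199881 to 100205798), which encodes an enhancer of procollagen C-proteinase, differed the most of the protein-coding genes above 0 in all 8 libraries. Its FPKM was 381 in Clone 2 and 3.52 in the GNF-2 population. The other populations had 2.98 (vehicle), 2.21 (imatinib) and 8.23 (nilotinib), and the other clones had 24.9 (Clone 1), 5.61 (Clone 3) and 6.09 (Clone 4). Clone 2 was thus far above all 7, with Clone 1 next, and its log2 difference from the population was 6.40.

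PHOSPHO1, a phosphatase of skeletal mineralization on chromosome 17 (47300731 to 47308128), had 99.9 in Clone 2 and 0.0327 in the population, and no other library exceeded 0.123. IFITM5, a membrane protein of osteoblasts, had 21.2 against 0.0891, with 0.505 or less elsewhere. DLX3, a homeobox factor of bone and tooth, had 66.7 against 0.427, and Clone 1 followed with 4.98. For all 3 genes the level in Clone 2 stood apart from every other library. SP7, also named Osterix, a transcription factor of osteoblasts, had 114 in Clone 2 and 5.43 in the GNF-2 population, and the other populations had 0.283 (vehicle), 2.33 (imatinib) and 12.9 (nilotinib). Its levels in the other clones were 29.6 (Clone 1), 0.854 (Clone 3) and 9.87 (Clone 4). SP7 was therefore highest in Clone 2 but was not limited to it.

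A list of 27 osteoblast and bone matrix genes was drawn up after these values were seen, so its count describes and supports nothing. Of its 11 measured members 7 were at least 2-fold higher, none was lower, and the median log2 difference was 3.93, against -0.04 over all genes. DLX2 (6.39 against 0.548) and BGLAP were the remaining 2 of the 7. BGLAP, osteocalcin, was 14.3 in Clone 2, 14.2 in Clone 1 and 10.4 in the nilotinib population, and was listed at 0 in the GNF-2 population and in the other 4 libraries, and reads of an overlapping readthrough gene cannot be told apart here. Several defining genes of bone were low or listed at 0. IBSP and SPP1 were listed at 0 in both libraries, ALPL had 0.0585 in Clone 2, RUNX2 had 1.98 against 2.01, and COL1A1 had 0.927.

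**Figure D2:**
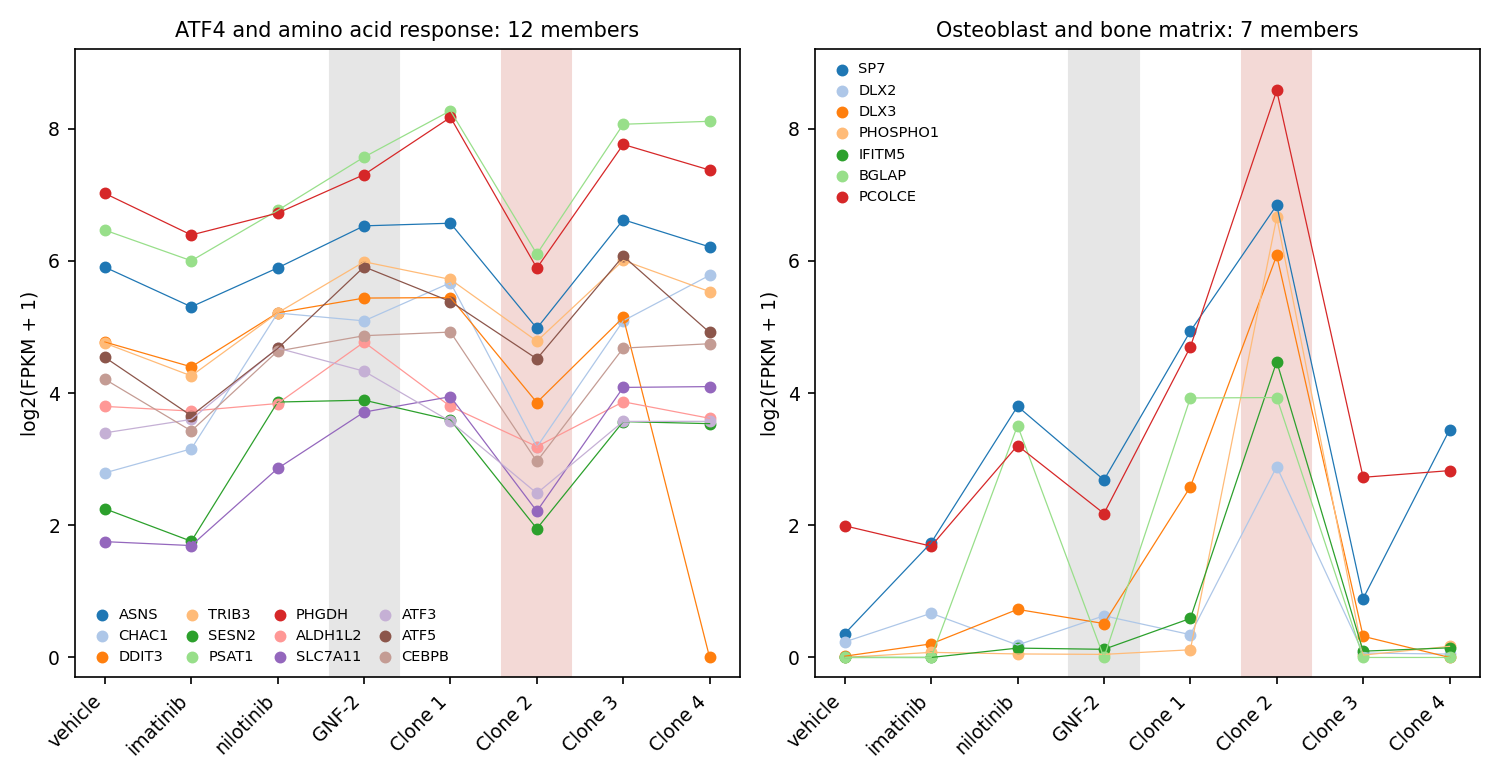
Level, as log2(FPKM + 1), in each of the 8 libraries of the list members at least 2-fold apart: 12 of the ATF4 list (left) and 7 of the osteoblast and bone matrix list (right). Thin lines join 1 gene and carry no order. In Clone 2 (red band) the left genes lie below and the right genes above the GNF-2 population (grey band); DDIT3 is listed at 0 in Clone 4.

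Receptor and signalling genes were also higher. LYN, a SRC family tyrosine kinase that is active in myeloid cells, had 215 in Clone 2 and 67.8 in the GNF-2 population. Its other 6 values were 64.7 (vehicle), 65.7 (imatinib), 81.5 (nilotinib), 62.5 (Clone 1), 55.0 (Clone 3) and 66.7 (Clone 4). The 7 other libraries lay close together and Clone 2 lay above them, with a log2 difference of 1.65 from the population. BTK, a kinase of B and myeloid cells in the same list of 5 measured kinases, was lower, at 10.9 against 34.0.

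Of 10 measured receptor tyrosine kinases and ligands, 3 were at least 2-fold higher and 1 was lower, and their median was 0.04. The shares over all 9791 genes were 4.08% higher and 7.88% lower. ERBB3, a receptor for neuregulins, had 36.7 in Clone 2 against 1.38 in the population. FGFR3, a fibroblast growth factor receptor, had 23.2 against 2.42, and AXL, the receptor for GAS6, had 22.2 against 1.66. The next highest library was Clone 4 for ERBB3 (4.06), Clone 1 for FGFR3 (2.74) and the imatinib population for AXL (3.69). EPHB4, an ephrin receptor, was the lower one, with 2.45 against 6.99.

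Secreted and matrix genes followed. WNT11, a ligand of noncanonical Wnt signalling, had 37.9 in Clone 2 and 0.571 in the GNF-2 population, and at most 1.33 elsewhere. MMP2, a matrix metalloproteinase, had 72.5 against 14.7, and TGFB1 had 699.6 against 319. Of 15 measured Wnt, TGF-beta and Notch genes 4 were higher (WNT11, SP7, HES4 and TGFB1) and 2 were lower. The lower ones were the Wnt effector LEF1, at 0.225 against 6.74, and the receptor FZD3, at 1.80 against 11.5. Over all 9791 genes 4.08% were higher and 7.88% were lower. SERPING1, the C1 inhibitor of complement, had 36.3 against 0.605, but Clone 4 had 30.1. TNFRSF18, a costimulatory TNF receptor, had 82.0 against 3.44, and Clone 1 had 68.7. These last 2 genes were each shared with 1 other clone of GNF-2 origin.

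FCER1G, the gamma chain that Fc receptors signal through, had 323 in Clone 2 and 9.85 in the GNF-2 population. Clone 1 had 37.1, Clone 4 had 6.05 and Clone 3 had 0.554, and the other populations had 14.5 (vehicle), 2.48 (imatinib) and 8.28 (nilotinib), so Clone 2 was the highest. Its ligand-binding partner FCGR1A, the high-affinity IgG receptor, went the other way, at 0.349 in Clone 2 against 30.9. FCGR1A lay between 13 (Clone 4) and 32.3 (vehicle) in the other 6 libraries, all above Clone 2. FCGR1B, a near copy of FCGR1A, had 0.0354 against 11.4, and the way reads were shared out between the copies is not known here.

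MHC class I genes present peptides at the cell surface. HLA-B had 1281 in Clone 2 and 224 in the population, and 836 in Clone 4. HLA-C had 297 and 80.8, and 246 in Clone 4. They were the 2 of 16 measured class I and peptide loading genes that were 2-fold higher, none was 2-fold lower, and the list's median was 0.45, with 6 of the 16 below the population. Reads of these similar and variable genes may be assigned uncertainly. Of 14 measured heat shock chaperones 4 were higher and none lower; HSPA8, a constitutive HSP70, had 527 against 239, while Clone 1, Clone 3 and Clone 4 had 745, 660.4 and 696. The DNAJB1 co-chaperone had 103 against 33.0, and vehicle had 198.

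On the lower side, STAB1 (chromosome 3, 52529355 to 52558511), a scavenger receptor of macrophages and endothelium, had 0.928 in Clone 2 and 99.5 in the GNF-2 population. The other populations had 74.5 (vehicle), 35.1 (imatinib) and 32 (nilotinib), and the other clones had 11.8 (Clone 1), 13.7 (Clone 3) and 10.7 (Clone 4). All clones were below all populations, and Clone 2 was the lowest, at a log2 difference of -5.70 from the GNF-2 population. GPR97, an adhesion receptor of granulocytes, showed the same order of kinds, with 0.177 against 58.9, between 5.44 and 11.7 in the other clones and between 31.9 and 52.9 in the other populations.

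Of 4 measured azurophil granule genes 2, CTSG and AZU1, were at least 2-fold lower and none was higher. Over all genes the shares were 7.88% lower and 4.08% higher. PRSS57, a granule serine protease outside the azurophil list, was higher, with 149 in Clone 2 against 63.7 and 344 in Clone 1. PRSS57 was chosen after its values were seen. CTSG, cathepsin G of azurophil granules, had 0.0480 in Clone 2 and 41.4 in the GNF-2 population, beside 36.5 (vehicle), 7.35 (imatinib) and 18.4 (nilotinib). It had 14.7 in Clone 1, 4.21 in Clone 3 and 32.1 in Clone 4, all above Clone 2. AZU1, the granule protein azurocidin, had 0.632 against 7.27, and Clone 4 was as low with 0.720. CEBPE, a transcription factor of granulocyte maturation, had 0.936 against 38.1, with 7.48 in Clone 4 and 23.5 or more in the other 5. LPO, a peroxidase, had 0.0316 against 24.5, and ALOX5AP, which hands arachidonic acid to 5-lipoxygenase, had 0.508 against 35.9. No other library was below 7.52 for LPO or 8.86 for ALOX5AP. LTC4S, the leukotriene C4 synthase that acts later in that pathway, was higher, with 157 against 41.1.

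The promoters of 3 of these low genes are shown because factors that drive granulocyte genes recognise short motifs in promoters. Whether such factors bind these 3 promoters was not tested. Each holds the 250 bases upstream of the RefSeq gene start (GRCh38.p14), 5′ to 3′ on the gene's strand, with motif matches in capitals. Both strands were searched for 7 motifs, none of which contains another. C/EBP was written as TTGCNNAA, the common core of sites for these leucine zipper factors. PU.1, the product of SPI1, was written as GAGGAAGT, and the blood factor family GATA as AGATAA. The AP-1 motif, bound by FOS and JUN dimers, was TGACTCA, and RUNX was searched as TGTGGT. The E-box, bound by MYC and related factors, was CACGTG, and the TATA box of core promoters was searched for by the letters TATAAA.
ALOX5AP, chr13:30713235-30713484, plus strand: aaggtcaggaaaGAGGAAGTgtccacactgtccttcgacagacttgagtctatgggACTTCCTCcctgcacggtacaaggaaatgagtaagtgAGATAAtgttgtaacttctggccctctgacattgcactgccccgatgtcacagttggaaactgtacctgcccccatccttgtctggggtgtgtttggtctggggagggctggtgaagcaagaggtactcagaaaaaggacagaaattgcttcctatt
CEBPE, chr14:23119256-23119505, minus strand: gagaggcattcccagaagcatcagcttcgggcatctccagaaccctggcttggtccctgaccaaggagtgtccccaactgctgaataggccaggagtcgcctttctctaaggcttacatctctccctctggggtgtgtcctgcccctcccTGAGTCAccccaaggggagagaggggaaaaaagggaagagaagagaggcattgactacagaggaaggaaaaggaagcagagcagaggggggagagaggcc
LPO, chr17:58238334-58238583, plus strand: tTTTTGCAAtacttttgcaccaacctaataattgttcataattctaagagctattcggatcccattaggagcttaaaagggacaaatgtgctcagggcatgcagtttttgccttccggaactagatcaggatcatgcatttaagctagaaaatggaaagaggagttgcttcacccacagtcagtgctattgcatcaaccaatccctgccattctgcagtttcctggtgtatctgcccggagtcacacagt
ALOX5AP held 2 PU.1 matches, starting 238 and 194 bases before the gene start, and a GATA match 157 bases before it. CEBPE held an AP-1 match 100 bases before its start, and LPO a C/EBP match 249 bases before its start. The PU.1 letters occur in 2.13% of all 27303 such promoters, in 2.12% of the 7888 promoters matched to measured genes, in 2.47% of the 566 matched to lower genes and in 2.83% of the 283 matched to higher genes. The C/EBP letters occur in 9.13%, 5.77%, 6.54% and 3.18% of these sets, the AP-1 letters in 4.16%, 2.12%, 3.89% and 2.12%, and the GATA letters in 9.37%, 4.02%, 5.12% and 5.30%. A match describes letters and not binding.

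Of 17 measured myeloid surface and cytokine receptors 10 were at least 2-fold lower and none was higher, with a median of -1.42 against -0.04 over all genes. Against the same GNF-2 library the list's median was -0.74 in Clone 1 and 0.09 in Clone 4. The summed FPKM of the list was 529 in Clone 2, 548 in Clone 1 and 1042 in the population. CD44, the hyaluronan receptor, had 109.8 in Clone 2 against 334; the other 6 libraries lay between 117 and 194, so the GNF-2 population was the high one. CD68, a lysosomal protein of macrophages, had 5.57 against 37.2, with 9.41 in Clone 1 and 9.83 in Clone 4. CD38, an ectoenzyme, had 2.76 against 14.1, and CD93 had 8.27 against 43.1. OSMR, the oncostatin M receptor, had 0.404 against 39.4 and at least 6.12 elsewhere. SIGLEC12, a sialic acid receptor with close paralogs, had 5.50 against 227, and ranged from 11.6 in Clone 3 to 510.2 in Clone 4.

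The ATF4 program switches on amino acid synthesis and transport when amino acids are scarce or the endoplasmic reticulum is strained. Of 26 measured members 12 were at least 2-fold lower in Clone 2 and none was higher, and the median was -0.90. ASNS, asparagine synthetase, had 30.5 in Clone 2 and 91.3 in the GNF-2 population. The other clones had 93.9 (Clone 1), 97.5 (Clone 3) and 73.0 (Clone 4), and the other populations had 58.9 (vehicle), 38.5 (imatinib) and 58.4 (nilotinib). Clone 2 was the lowest library for ASNS, and the imatinib population was next. PHGDH, the first enzyme of serine synthesis, had 58.3 against 157, and Clone 1 had 287. For PSAT1, which follows in that pathway, Clone 2 (67.7) lay beside the imatinib population (63.0) and below the GNF-2 population (189). CHAC1, a glutathione-degrading enzyme, had 8.08 against 33.1, with 5.93 in vehicle. SESN2 (2.86 against 13.8) and the transcription factor CEBPB (6.81 against 28.2) were lower too. Against the same population, the list's median was 0.27 in Clone 1 and 0.02 in Clone 4, and these comparisons share the GNF-2 library. The list's summed FPKM was 1944 in Clone 2, and only the imatinib population was lower, with 1729. The other populations had 2229.5 (vehicle), 2238 (nilotinib) and 2648 (GNF-2). The other clones had 3844 (Clone 1), 3393 (Clone 3) and 2905 (Clone 4). Of 18 aminoacyl-tRNA synthetases 2 were lower, CARS and WARS, and the median was -0.38.

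Interferon-stimulated genes, part of the antiviral response, gave 10 lower and no higher members of 35 measured, with a median of -0.54. The list's summed FPKM was 3160 in Clone 2 and 3605 in the GNF-2 population. The other populations had 2342 (vehicle), 3455 (imatinib) and 2580 (nilotinib), so by this sum Clone 2 lay within their range. ISG15, a ubiquitin-like modifier, had 66.5 in Clone 2 and 189 in the GNF-2 population, with 46.4 in Clone 1 and 379 in Clone 4. OAS2, an RNA sensor, had 23.7 against 74.6, with 4.72 in Clone 1 and 171 in Clone 4. The list's median against the shared GNF-2 library was -1.92 in Clone 1 and 1.05 in Clone 4, so the 3 clones of GNF-2 origin did not have 1 common level.

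The counts of this paragraph stand beside 4.08% higher and 7.88% lower over all 9791 genes. Of 13 measured MAP kinase feedback and immediate early genes 3 were lower and none higher (median -0.51). DUSP6, the ERK phosphatase, had 1.26 in Clone 2 against 19.7 and at least 7.58 elsewhere. EGR1 had 2.78 against 18.4, and Clones 1, 3 and 4 were between 4.37 and 4.93. Of 14 STAT5 output genes 3 were lower, SOCS1, CCND2 and IL2RG, and none was higher (median -0.15). SOCS1, a feedback inhibitor of cytokine signalling, had 10.9 against 35.8, and Clone 1 had 13.6. CCND2, cyclin D2, had 1.64 against 26.7, with 0.238 in Clone 1 and 0.107 in Clone 3. Of 14 BCL2 family genes BCL2 (12.3 against 26.4) and the BH3-only gene PMAIP1 (28.6 against 70.1) were lower, and BIK (25.5 against 12.1) was higher. None of 26 mitosis genes and none of 36 cytosolic ribosomal protein genes was 2-fold apart, with medians of -0.35 and -0.10.

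TXNIP, an inhibitor of glucose uptake, had 48.3 in Clone 2 and 359 in the GNF-2 population, and lay between 27.1 and 52.8 in the other clones and between 136 and 207 in the other populations. The metallothionein MT1X, a metal-binding protein, had 95.9 against 576, with 21.5 to 47.9 in the other clones and 470.4 to 996 in the other populations. For both genes every clone was below every population, so the low level was not particular to Clone 2.

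**Figure D3:**
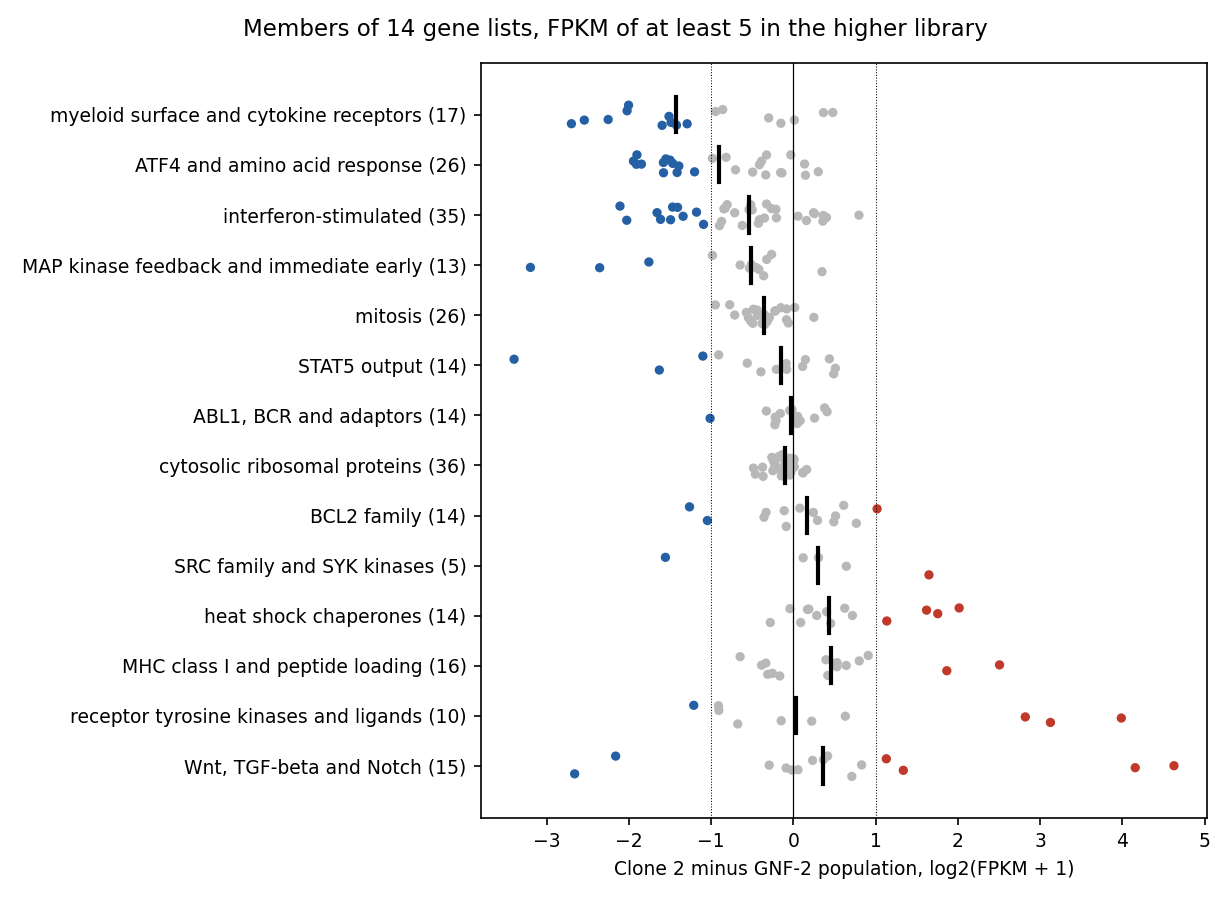
Difference in log2(FPKM + 1) between Clone 2 and the GNF-2 population for each measured member of 14 gene lists, with the number measured in brackets. Black bars are list medians, dotted lines mark 2-fold. Myeloid receptors (median -1.42) and ATF4 genes (-0.90) lie to the left, while ribosomal protein genes (-0.10) lie near 0.

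The blood identity of both libraries was checked against lineage markers. GATA2 (155 in Clone 2, 172 in the population) and HDC, histidine decarboxylase (314 and 435.0), both of mast cells and basophils, were abundant, but 8 of the 10 markers of mast cells, basophils and eosinophils were under an FPKM of 1 in Clone 2 and 7 in the population. The myeloid factors CEBPA (16.6 and 19.5) and SPI1 (15.8 and 12) were present. The blast marker MPO was low, at 0.0429 and 0.403, and KIT was listed at 0 in both. CD34, a progenitor marker, was 0.852 and 3.08. GATA1, the erythroid and megakaryocytic factor, had 8.55 in Clone 2, 0.722 in the population and at most 1.38 elsewhere. Globin genes were at or near 0 in both libraries. In a list of megakaryocyte and platelet genes 4 of 8 measured members were 2-fold higher and 2 were lower, PLEK (5.57 against 46.7) and F2R (5.55 against 20.2). CLEC1B, a platelet receptor outside that list, was lower, with 0.408 against 34.9. Of 8 megakaryocyte markers GP9 (119 against 33.6), ITGB3 (90.1 against 17.9) and ITGA2B (5.05 against 1.94) were higher, while PPBP was listed at 0 in all 8 libraries and PF4 listed at 0 in Clone 2. The summed FPKM of these 8 markers was 216 in Clone 2 and 55.9 in the population. Of 7 markers of non-blood cells KRT8 (43.5 against 11.2) and KRT18 (81.2 against 32.6), keratins of simple epithelia, were higher, while EPCAM had 0.312 and CDH5 0.148 in Clone 2. Their summed FPKM was 133 in Clone 2, 44.1 in the population and 97.6 in Clone 1. The part of other cell types in the differences was not tested.

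Exact zeros need care, since without counts they may be failed estimates. Of the measured genes 58 were listed at 0 in Clone 2 alone of the pair and 42 in the population alone. EEF1E1, a scaffold protein of the tRNA synthetase complex, was listed at 0 in 7 libraries and at 93.2 in Clone 2. PTRHD1 was listed at 0 in Clone 2 and at 15.7 or more in the other 7. CD3D was listed at 0 in Clone 2 and at 10.6 in the population. Of the 1171 genes apart, 1033 were above 0 in all 8 libraries.

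The next question was how far Clone 2 stood from the rest of the series, counted over all genes and not over those apart in the pair. Clone 2 was at least 2-fold above every other library for 146 genes, each with an FPKM of 5 or more in Clone 2. That is 1.42% of the 10310 genes that reached an FPKM of 5 in any library. Clone 2 was 2-fold below every other library for 62 (0.601%), counting only genes at an FPKM of 5 or more in all others. Genes such as CTSG, with 4.21 in Clone 3, are therefore not among the 62, and the counts above and below cannot be set against each other. In the same count Clone 4 had 85 and 31, and the GNF-2 population had 18 and 1. By the 2-fold rule Clone 2 differed from Clone 1 at 795 genes (8.52% of 9328), from Clone 3 at 1115, from Clone 4 at 1147 and from the vehicle population at 1639. These counts share the Clone 2 library, and the count against Clone 1 was the smallest of the 7.

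**Figure D4:**
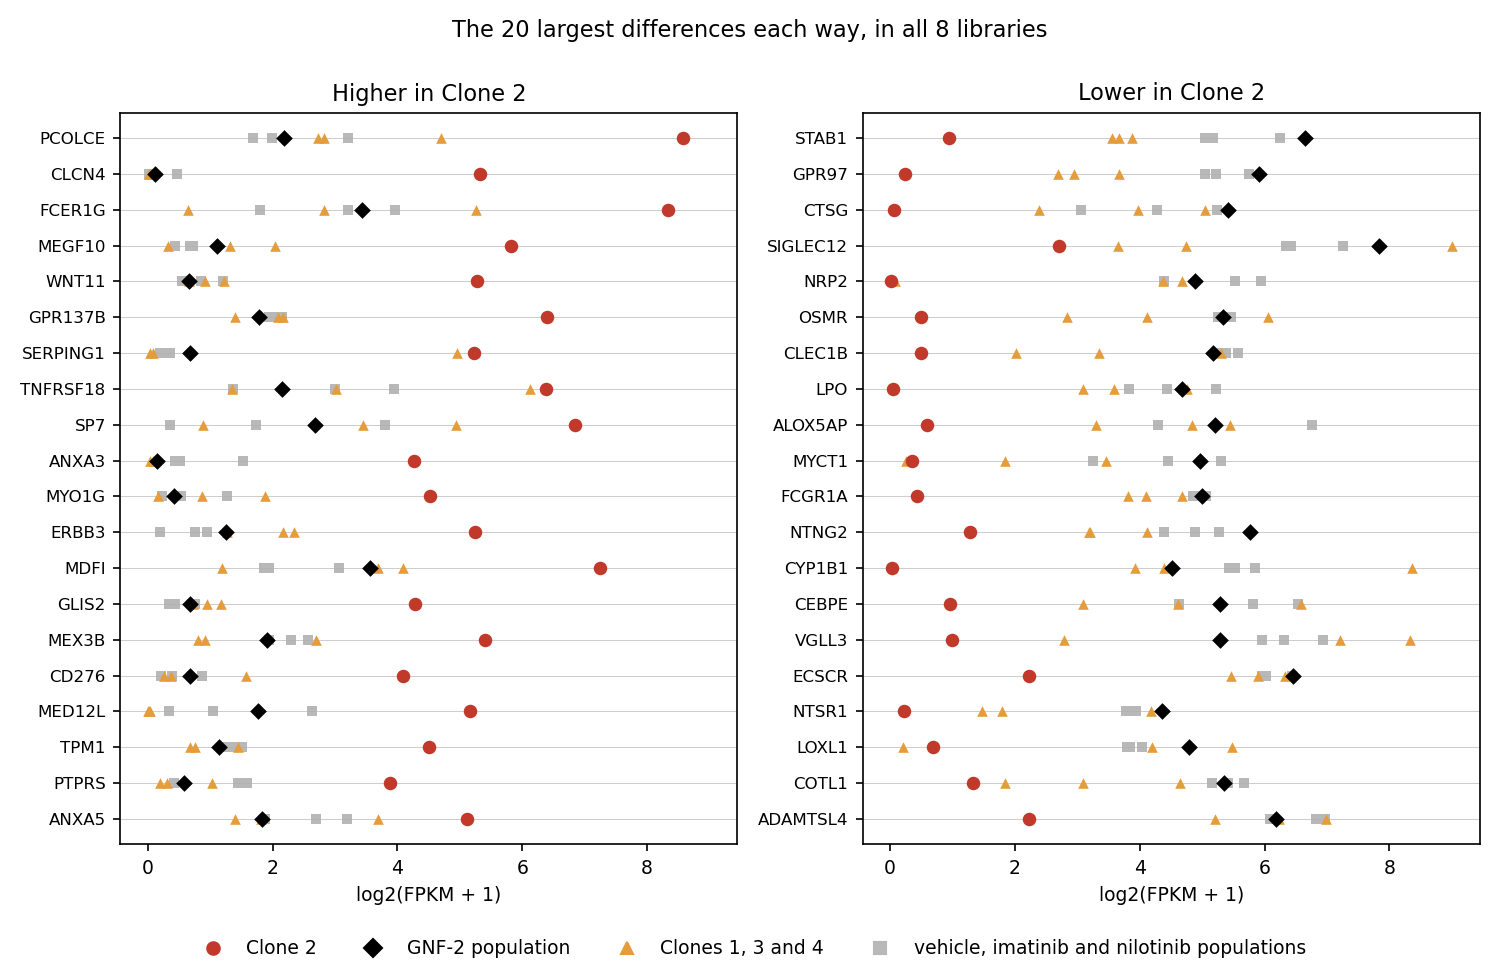
Level, as log2(FPKM + 1), in all 8 libraries of the 20 largest differences each way between Clone 2 (red) and the GNF-2 population (black), among protein-coding genes above 0 everywhere. Clone 1 joins Clone 2 at the low end for NRP2, MYCT1 and LOXL1, while at the high end Clone 4 joins it for SERPING1 and Clone 1 for TNFRSF18.

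**Figure D5:**
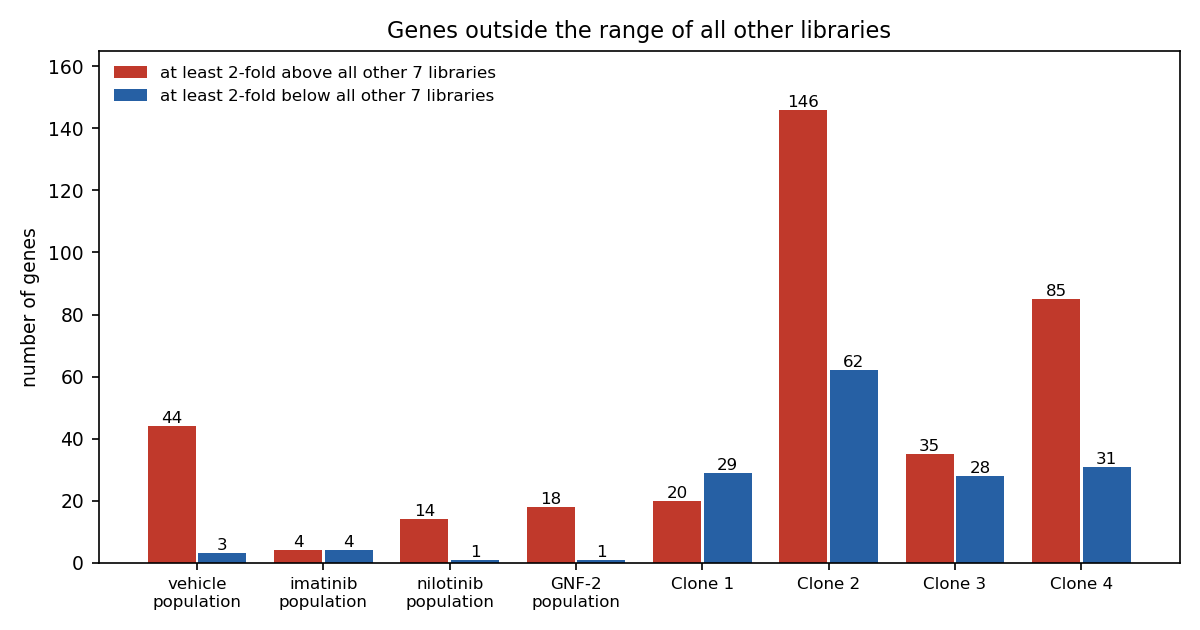
Number of genes for which each library lies at least 2-fold above (red) or below (blue) all other 7 libraries. Red genes have an FPKM of 5 or more in that library, and blue genes have 5 or more in all the others. Clone 2 has 146 and 62, Clone 4 has 85 and 31, and the GNF-2 population has 18 and 1.

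Clone 2 was then tested against Clones 1, 3 and 4 with limma on all 8 libraries. Clone 2 is a lone library assumed to vary like the others, and p-values measure only the spread between these libraries, which may be technical. Of 11843 genes 135 (1.14%) passed an adjusted p of 0.05, 96 higher (0.811%) and 39 lower (0.329%). Left out in turn, the imatinib population brought this to 73, the nilotinib population to 81 and Clone 1 to 219. This contrast shares the Clone 2 library with the comparison above. Most genes given next were picked because they passed, so their number and values describe the calls and add no support to the pair.

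LYN, WNT11, GPR137B, MMP2 and CLCN4 passed also with any 1 of the other 7 libraries left out. In limma LYN was higher by 1.79 (SE 0.19, adjusted p = 0.00502) on the log2 scale. WNT11 (4.35, SE 0.35, adjusted p = 0.0017), GPR137B, a lysosomal membrane protein (4.51, SE 0.33, adjusted p = 0.0013), and MMP2 (4.40, SE 0.55, adjusted p = 0.0139) were also higher in Clone 2. GPR137B had 83.2 in Clone 2 and 3.49 or less in the other 7 libraries. CLCN4, a chloride and proton exchanger, had 39.0 against 0.377 or less (5.29, SE 0.30, adjusted p = 0.000338). PHOSPHO1 passed too (adjusted p = 4.88e-05). IFITM5, DLX2 and GATA1 passed with adjusted p of 0.0013, 0.0121 and 0.014, but not with a pseudocount of 0.1 (0.0565, 0.0874 and 0.0522).

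CTSG, CEBPE and ALOX5AP did not pass in limma (adjusted p = 0.208, 0.225 and 0.173); among the other clones CTSG ran from 4.21 to 32.1, CEBPE from 7.48 to 95.0 and ALOX5AP from 8.86 to 42.8. The lower genes that passed in every removal included FCGR1A (-3.76, SE 0.30, adjusted p = 0.00183) and ECSCR, an endothelial surface protein (-3.68, SE 0.34, adjusted p = 0.00333). ECSCR had 3.65 in Clone 2 and between 43.2 and 86.5 in the other 7 libraries. DAPK1, a calcium-regulated death-associated kinase, had 5.61 against 31.7 to 53.4 (-2.63, SE 0.29, adjusted p = 0.00761). PDE3B, a cyclic nucleotide phosphodiesterase, had 0.326 against 6.44 to 13.3 (-3.08, SE 0.39, adjusted p = 0.0142).

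Other calls were lost when 1 library was left out, among them those of FGFR3, DLX3 and LPO. PCOLCE (5.16, SE 0.82, adjusted p = 0.0324) did not pass without Clone 3 (0.0655), Clone 4 (0.0566), the GNF-2 (0.0738), imatinib (0.0652) or vehicle population (0.0611). GPR97 (-2.87, SE 0.44, adjusted p = 0.0312) did not pass without the imatinib (0.0652) or vehicle population (0.0527), or with a pseudocount of 5 (0.182). ERBB3 (3.31, SE 0.51, adjusted p = 0.0289) did not pass without the imatinib (0.0672) or nilotinib population (0.0604), or with a pseudocount of 0.1 (0.164). AXL (4.28, SE 0.64, adjusted p = 0.027) did not pass without Clone 3 (0.0611), the GNF-2 (0.0581) or vehicle population (0.0523), or with a pseudocount of 0.1 (0.083). FCER1G did not pass at all (5.44, SE 1.52, adjusted p = 0.183), with Clone 1 at 37.1 and Clone 3 at 0.554. STAB1 did not pass either (-2.75, SE 0.59, adjusted p = 0.0924).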

How the data were processed

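RNA of 8 KCL-22 cultures was sequenced, 1 library each. The values are FPKM per gene, computed and deposited by the authors; TopHat 1.3, Cufflinks 1.3 and GRCh37 stand in the submitters' processing notes, without roles. The header names no unit, so FPKM was taken from the tool and the values. No label states strandedness. Of 31402 entries, 70 lacked a value in some library and were left out.

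Depth, estimated roughly from the smallest steps of 666 intronless genes, was 20300000 fragments in the GNF-2 population, 24000000 in Clone 2 and 20600000 to 41000000 elsewhere. FPKM of 1 on a 2 kilobase transcript is then about 41 and 48 fragments in the pair.

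Differences are log2(FPKM + 1), called apart from 2-fold, with no test for the pair. limma 3.58.1 in R 4.3.3 (lmFit, eBayes with trend) fitted 3 means (populations, Clones 1, 3 and 4, Clone 2) on genes with mean FPKM of at least 1, two-sided, Benjamini-Hochberg adjusted, with 5 residual degrees of freedom, and was tested on simulated data. Of 23470 Entrez identifiers, 23286 matched RefSeq (GRCh38.p14), used for biotype and promoters; gene positions are those of the deposited table. Tables and figures used Python 3.11.15, pandas 2.3.3, numpy 2.4.6 and matplotlib 3.10.9.

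Genes and 47 lists were chosen with earlier results of these data known, and 3 lists after values were seen (osteoblast, 7 of 11 higher; Siglec, 2 of 2 lower; Fc receptor, 1 higher and 2 lower of 4). Named by rule were the 20 largest differences each way among protein-coding genes above 0 everywhere, up to 4 per list, the 5 highest each way listed at 0 in 1 of the pair, up to 10 each way past the limma threshold, ABL1, BCR and the genes nearest FPKM 5; others were chosen after their values were seen. Alternatives were pseudocounts of 0.1 and 5, other filters, median ratios, quantile normalization, no variance trend, leaving out libraries and, chosen after seeing the data, a plain ratio.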

Additional observations from a re-analysis of the deposited data

How the results depend on the processing

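Of the genes apart in the pair, 1171 became 732 with a pseudocount of 5 (447 lower), 507 when the higher library had to reach an FPKM of 20 (200 higher, 307 lower) and 390 at 4-fold (158 higher, 232 lower). A plain ratio, chosen after seeing the data, gave 1355. Rescaling by median ratios gave 464 higher and 655 lower, and quantile normalization 494 and 654; the median of all genes then was 0.06 and 0.02, not -0.04. In the counts with an FPKM minimum of 5, Clone 2 lay 2-fold beyond all 7 other libraries at 208 genes. They became 133 with a pseudocount of 5, 324 with an FPKM minimum of 1 and 81 with one of 20. Members of the 47 lists that were apart numbered 138 of 620 (22.3%, beside 12% of all 9791 genes), and 96 to 169 under the alternatives. The 138 were 53 higher and 85 lower members. Of 194 genes and list members apart or named, 29 fell under 2-fold with a pseudocount of 5 and 6 with median ratios. None of those apart changed direction, but a pseudocount cannot reverse a difference. The median-ratio factors (1.09 for the GNF-2 population, 1.02 for Clone 2) are too close to reverse a 2-fold difference. The median stayed between -0.95 and -0.75 for ATF4 genes, between -1.50 and -0.98 for myeloid receptors and between -0.58 and -0.45 for interferon genes, while that of receptor tyrosine kinases ran from -0.15 to 2.97.

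Against the other 3 clones, 135 genes passed limma (1561 at an unadjusted p under 0.05). There were 549 with no filter (495 higher, 54 lower) and 71 with a mean FPKM of at least 5; the cause was not tested. Leaving out 1 library gave 73 to 219. The split of 96 higher and 39 lower became 72 and 60 with a pseudocount of 0.1, 151 and 31 with one of 5, 88 and 47 with quantile normalization, 80 and 46 with median ratios, and 122 and 97 without Clone 1. No paired analysis was possible because each group has 1 library. At the estimated depths, levels under an FPKM of 0.1 rest on a few fragments.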

Other observations

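Single genes of other lists are given here as values in FPKM. Of 7 measured S100 genes, which encode calcium-binding proteins, 3 were at least 2-fold higher and 2 lower, with a median of -0.17. S100A4 had 1294 in Clone 2 against 286 in the GNF-2 population, and Clone 1 (1392) and Clone 4 (1304) were as high. S100P had 48.7 against 334 and was between 207 and 721 in the other 6 libraries. PRF1, perforin of cytotoxic cells, had 54.7 against 4.87 and at most 11.5 elsewhere, while CD3E and CD2, T cell genes, were listed at 0 in Clone 2. Of 6 T lineage markers 4 were listed at 0 in Clone 2 and 2 in the GNF-2 population. Their summed FPKM was 54.5 in Clone 2 and 49.8 in that population. Of 7 measured lymphoid genes 3 were at least 2-fold higher and 1 was lower, with a median of 0.82. TFRC, the transferrin receptor, had 98.1 against 40.7, with 68.2 to 137 in the other clones. The glycogen gene PYGL, liver glycogen phosphorylase, had 53.2 against 204, and PYGM, the muscle form, had 12.2 against 0.471.

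CYP1B1, a cytochrome P450, had 0.0174 in Clone 2 against 21.9 in the GNF-2 population and 329.6 in Clone 3. Of 26 measured small nucleolar RNAs 16 were at least 2-fold higher and 8 lower in Clone 2. Of 145 long noncoding RNAs 6 were higher and 33 lower. Over all measured genes 4.08% were higher and 7.88% lower. Small nucleolar RNAs are very short, and how steady their FPKM is between libraries was not tested. Among successive measured protein-coding genes, no run apart in the same direction was longer than 3. Unmeasured genes can lie between the members of a run. Among the runs of 3, KRT8 and KRT18 with C12orf44 were higher together, and NKG7, SIGLEC12 and SIGLEC6 were lower together.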
